A study of Vitis vinifera with 23 samples.

Results

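The response of Sauvignon blanc berries to bunch exposure was described at EL33, the last green stage before véraison, from 3 exposed and 3 control samples out of the 23 samples of the series. The samples were chosen by the stage and treatment in their labels. All 6 came from berries of Vitis vinifera cv. Sauvignon blanc, a white cultivar, grown in 1 vineyard. In the exposed group, leaves and lateral shoots had been removed from the bunch zone on 1 side of the canopy at an earlier stage, whereas the bunches of the control group stayed shaded by the canopy. Exposed and control panels of neighbouring vines alternated within and between 2 rows, so the panels of both treatments shared the season, the rows and the sampling. RNA was sequenced from 3 of the 6 panels of each treatment. Which panel gave each sample was not stated, so how the 6 samples were spread over the rows is not known. The p values measure only the spread between replicates, shared over all stage and treatment groups of the series, which may in part be technical. Whole berries were frozen in the field and their seeds were taken out later, so skin and pulp RNA were measured together. In such bulk samples, a change in RNA per cell and a change in the share of a tissue cannot be told apart. Of the 29970 genes in the deposited table, 17700 had a mean of at least 1 FPKM in exposed or control grapes at EL33 and were tested. FPKM counts the fragments of a transcript and scales them by its length and by the mapped fragments of the library.

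Green grape berries carry functional chloroplasts. Bright light can damage photosystem II in them, and cells respond by dissipating excess energy as heat, replacing damaged subunits and accumulating flavonols, which screen ultraviolet light. Heat shock proteins keep other proteins folded under heat and other stresses. The study chose its leaf removal treatment to change light with little change in berry temperature, and neither was measured in the files used here. At véraison the berry softens, takes up sugar and switches from a green to a ripening programme, with abscisic acid among its signals and with thaumatin-like proteins, expansins and pectin-degrading enzymes among its typical products.

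The number of genes at or above 1 FPKM was between 16974 and 17220 in the 6 EL33 samples, and Pearson's r of the log2 values between pairs of these samples lay between 0.873 and 0.898. Depth relative to the median of the 6 samples, estimated from the steps between the lowest FPKM values, was 1.05, 1.79 and 0.743 in control replicates 1 to 3 and 0.954, 0.713 and 1.06 in exposed replicates 1 to 3. It is approximate, read counts were not used here, and the spread between replicates served as the measure of error. The summed level of 16 seed storage and oil body genes, markers of seed tissue, was 1838 FPKM in control 1 and 254.8 FPKM in exposed 1, against 62.7 to 107 FPKM in the other 4 samples. Of the tested genes, 755 were listed at 0 FPKM in at least 1 EL33 sample, among them 149 with a median of at least 5 FPKM over the 6 samples. Such a 0 may be a failed estimate and is given below only as listed. The labels number the samples in the fifties (control 1, control 2 and exposed 1) and in the sixties (control 3, exposed 2 and exposed 3), and the meaning of this numbering was not stated.

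More genes were upregulated than downregulated in exposed grapes at EL33, and 6 of the 10 largest increases were in small heat shock, photoprotection and flavonol genes. By limma on log2(FPKM + 0.1), with the 8 stage and treatment groups in 1 fit and Benjamini-Hochberg adjustment over the 17700 genes, 535 genes (3.02%) were higher and 182 genes (1.03%) were lower in exposed than in control grapes at an adjusted p of at most 0.05, 717 genes (4.05%) in all. The median log2 fold change over all tested genes was -0.02. Among the called genes, 217 changed by at least 1 on the log2 scale, and 60 of the higher genes by at least 2. In 688 of the 717 genes no exposed sample overlapped with a control sample, whereas among all tested genes every exposed sample lay above every control sample in 9.71% and below every control sample in 12.8%. The number of calls rested on the spread shared with the other stages and on single samples. Over the tested genes, the median standard deviation of log2(FPKM + 0.1) was 0.212 in exposed grapes at EL33. It was 0.145 to 0.205 in the other groups, so the shared spread may understate that of the exposed samples. With the 6 EL33 samples fitted alone, limma called 4 genes, all lower, although 2681 genes had an unadjusted p of at most 0.05. It called 2.01%, 1.48% and 3.53% of the tested genes without control replicates 1, 2 and 3, and 1.88%, 5.66% and 2.32% without exposed replicates 1, 2 and 3. Without both control 1 and exposed 1, the samples with the most seed RNA, 140 genes (0.791%) were called.

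Genes for photoprotection were higher in all 3 exposed samples than in any control sample, and all 4 members of this list passed the test. ELIP1 (VIT_05s0020g04110), an early light-induced protein that binds free chlorophyll under light stress, was at 185, 152.2 and 318 FPKM in control and at 979, 1173 and 1004 FPKM in exposed replicates 1 to 3 (log2 fold change 2.34, SE 0.25, adjusted p = 9.68e-05). The exposed samples lay close together and the groups did not overlap. A gene for an FtsH protease (VIT_14s0108g00590), a type of enzyme that clears photodamaged D1 protein from photosystem II, was at 0.2, 0.133 and 1.65 FPKM in control and at 6.45, 14.5 and 5.30 FPKM in exposed grapes (log2 fold change 4.01, SE 0.72, adjusted p = 0.00385). Exposed 2 held the highest and control 2 the lowest level of both genes. PsbS (VIT_18s0001g02740), which triggers the dissipation of excess light energy as heat, was at 348, 235 and 347 FPKM in control and 729.9, 744 and 559 FPKM in exposed grapes (log2 fold change 1.14, SE 0.22, adjusted p = 0.00667). The violaxanthin de-epoxidase gene VIT_04s0043g01010, whose enzyme makes zeaxanthin for the same process, was at 25.5, 18.8 and 26.5 FPKM in control and 35.6, 35.1 and 34.2 FPKM in exposed grapes (log2 fold change 0.58, SE 0.15, adjusted p = 0.0404). For both genes each exposed sample lay above each control sample, with the smaller change in violaxanthin de-epoxidase. The call of PsbS was lost without control 2 (adjusted p = 0.0522), and that of violaxanthin de-epoxidase was lost without control 1, control 2, exposed 1, exposed 2 or exposed 3, left out in turn (adjusted p between 0.0644 and 0.204). Of these 4 genes, ELIP1 and FtsH came from the study's tables of genes changed by exposure in these samples and the others from its text on photoprotection, so the count is not independent evidence of the direction.

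**Figure D1:**
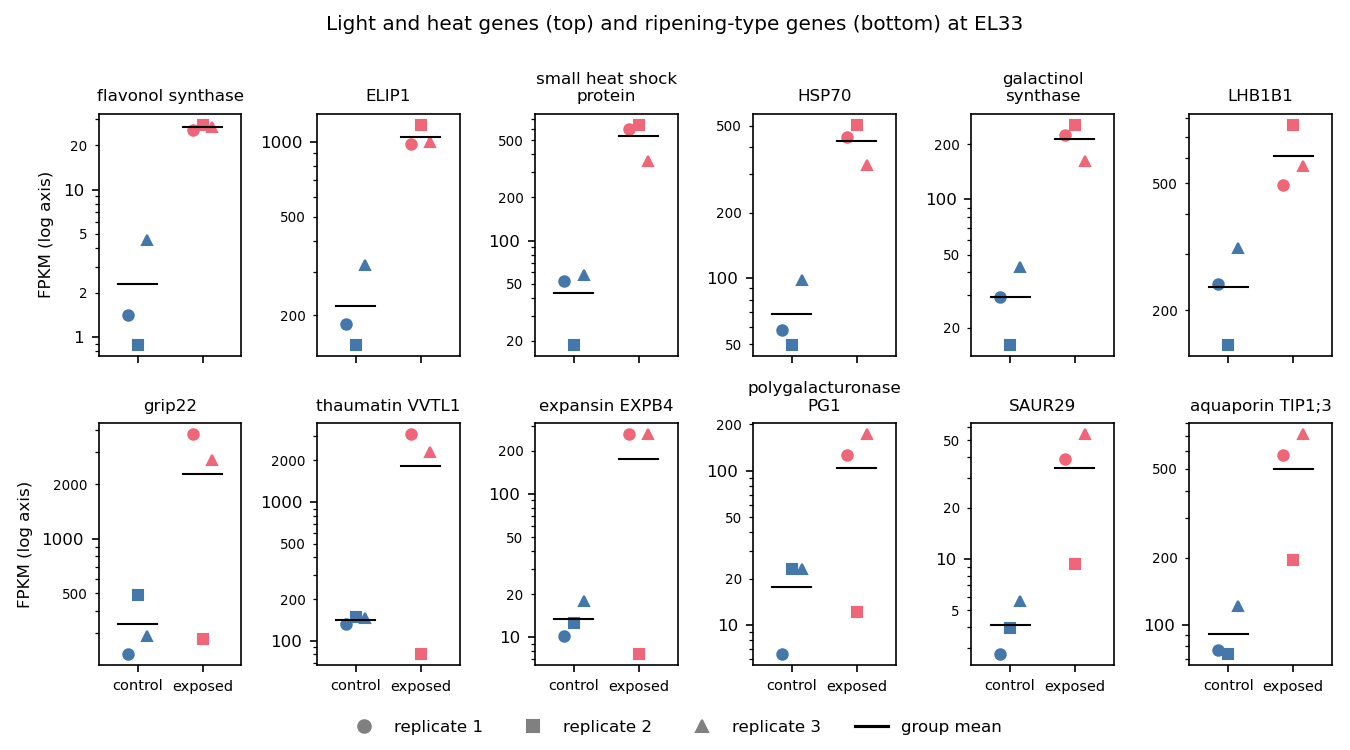
FPKM of 12 genes (log axes) in the 3 control and 3 exposed samples at EL33; marker shapes give the replicate and bars the arithmetic group mean. In the top row all exposed samples lie above all control samples, and in the bottom row exposed 2 lies apart from exposed 1 and 3, within or below the range of the controls for 4 of the 6 genes.

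Photosystem and light-harvesting antenna genes formed another group in which part of the members were upregulated in exposed grapes. Of 32 members tested, 10 were higher by the test and 0 were lower, the median log2 fold change was 0.60 against -0.02 over all genes, and 21 members lay above all controls in every exposed sample. Over all tested genes 3.02% were called higher and 9.71% had every exposed sample above all controls. By sample, the list stood 0.46, 0.97 and 0.52 above the control mean on the log2 scale in exposed replicates 1 to 3, and exposed 2 was the highest of the 6 samples for 27 of the 32 members. LHB1B1 (VIT_12s0028g00320), a chlorophyll-binding protein of the photosystem II antenna, was at 241, 156 and 312 FPKM in control and 493, 761 and 568 FPKM in exposed grapes (log2 fold change 1.39, SE 0.25, adjusted p = 0.00385). LHCA1 (VIT_13s0019g04140), of the photosystem I antenna, was at 391, 332 and 456 FPKM in control and 788, 979.9 and 773 FPKM in exposed grapes (log2 fold change 1.11, SE 0.20, adjusted p = 0.00346). Plastocyanin (VIT_18s0001g00760), the copper protein that carries electrons to photosystem I, was at 423, 353.5 and 367 FPKM in control and 713, 1034 and 646 FPKM in exposed grapes (log2 fold change 1.04, SE 0.18, adjusted p = 0.00307). The groups did not overlap for any of these 3 genes, exposed 2 was highest for each, and their calls held when any 1 EL33 sample was left out. LHCA4 (VIT_17s0000g06350) was higher by a log2 fold change of 0.91 (adjusted p = 0.0409), a call lost without control 1, control 2, exposed 2 or exposed 3, left out in turn (adjusted p between 0.112 and 0.178).

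Other antenna and photosystem genes did not pass the test at EL33. LHCA2 (VIT_01s0010g03620) was at 414, 317 and 450.3 FPKM in control and 549, 794 and 637 FPKM in exposed grapes (log2 fold change 0.74, adjusted p = 0.063 by limma), with no overlap between the groups. The photosystem II gene PsbO (VIT_18s0001g11710), part of the oxygen-evolving complex, was at 42.2, 28.8 and 43.8 FPKM in control and 81.8, 122 and 82.4 FPKM in exposed grapes (log2 fold change 1.31, adjusted p = 0.0723). The antenna gene VIT_19s0014g00160, annotated as CAB-1 of light-harvesting complex II, was at 38, 29.2 and 44.5 FPKM in control and 33.3, 76.5 and 43.6 FPKM in exposed grapes, so that only exposed 2 lay above the controls (log2 fold change 0.39, adjusted p = 0.61). Levels of these genes fall as berries ripen. The control level of the list changed by a median of -1.97 on the log2 scale from EL31 to EL34, and 16 of its members were among the ripening-fall genes defined below. Without single EL33 samples, 4 to 7 members were called higher (4 without control 1, 4 without control 2, 5 without exposed 2 and 6 without exposed 3). The median log2 difference was 0.49 within the samples numbered in the fifties and 0.64 within the sixties. Most members came from the study's developmental markers, and 3 of the 32 from its tables of genes changed by exposure.

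Among 8 genes of carbon fixation, 2 passed the test, both higher. For this and the next 2 lists, the share called higher over all tested genes was 3.02%. The gene for a chloroplast carbonic anhydrase (VIT_14s0066g01210), which supplies carbon dioxide to Rubisco, was at 29, 19.8 and 45.4 FPKM in control and 81, 89.4 and 90.6 FPKM in exposed grapes (log2 fold change 1.55, SE 0.22, adjusted p = 0.000985). A gene of the Rubisco small subunit (VIT_17s0000g03690) was among the most abundant named transcripts, at 2551, 1719.8 and 2209 FPKM in control and 3351, 4549 and 3241 FPKM in exposed grapes (log2 fold change 0.78, adjusted p = 0.0448 by limma). The first call held without any 1 EL33 sample, and the second was lost without each of the 6 samples in turn, with adjusted p up to 0.199. Of 11 genes of photorespiration and glycine metabolism, 2 were higher. Serine-glyoxylate aminotransferase (VIT_06s0009g03740), a peroxisomal enzyme of the photorespiratory cycle, was at 82.5, 77.5 and 97.3 FPKM in control and 143, 156 and 146 FPKM in exposed grapes (log2 fold change 0.79, SE 0.13, adjusted p = 0.00174). Glycine hydroxymethyltransferase (VIT_00s0211g00120), which turns glycine into serine, was higher by 0.70 on the log2 scale (adjusted p = 0.0414), a call lost without control 1, control 2, exposed 1, exposed 2 or exposed 3, left out in turn (adjusted p between 0.0644 and 0.21). An alanine-glyoxylate aminotransferase gene (VIT_08s0058g00930) did not pass the test (log2 fold change 0.68, adjusted p = 0.0562). Of 8 tested genes of tyrosine breakdown and tocopherol synthesis, 1 was higher. This gene, 4-hydroxyphenylpyruvate dioxygenase (VIT_12s0028g00710), which makes the precursor of tocopherols and plastoquinone, was at 51.9, 55 and 54.2 FPKM in control and 86, 86.3 and 79.5 FPKM in exposed grapes (log2 fold change 0.64, SE 0.14, adjusted p = 0.0173). Its call was lost without control 1, control 2 or exposed 1, left out in turn (adjusted p between 0.0606 and 0.0699). The study's exposure tables supplied 1 of the 8 carbon fixation genes, 2 of the 11 photorespiration genes and 0 of the tocopherol genes.

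The flavonol synthase gene VIT_18s0001g03470, whose enzyme makes the flavonols of the berry skin, was among the 10 largest increases. It was at 1.41, 0.885 and 4.57 FPKM in control and 25.3, 27.4 and 26.7 FPKM in exposed grapes (log2 fold change 3.80, SE 0.51, adjusted p = 0.00069). The 3 exposed samples were nearly equal, while control 3 held several times the level of control 2, and the call held without any 1 EL33 sample. Of 16 tested genes of the flavonoid pathway, 5 were higher and 0 were lower, with a median log2 fold change of 0.28. Over all tested genes 3.02% were called higher. Chalcone synthase, the first enzyme of the pathway, is encoded by similar copies. VIT_14s0068g00920 was at 27.6, 20.7 and 27.7 FPKM in control and 56.9, 58.6 and 59.3 FPKM in exposed grapes (log2 fold change 1.21, SE 0.23, adjusted p = 0.00615). VIT_14s0068g00930 was at 14.2, 13.1 and 15.2 FPKM in control and 27.4, 24 and 28.8 FPKM in exposed grapes (log2 fold change 0.91, SE 0.14, adjusted p = 0.00135). Neither gene overlapped between the groups, but how reads were divided between the copies is uncertain. Chalcone isomerase (VIT_13s0067g03820) was higher by 0.59 (adjusted p = 0.0172), a call lost without control 2, exposed 1 or exposed 3, left out in turn (adjusted p between 0.0533 and 0.103). Flavanone 3-hydroxylase (VIT_18s0001g14310), the step before flavonol synthase, was higher by 0.70 (adjusted p = 0.0315), a call lost without control 1, control 2, exposed 2 or exposed 3, left out in turn (adjusted p between 0.0582 and 0.132). The remaining 11 flavonoid genes did not pass the test, and 3 members were called without control 2 or exposed 3. The study's exposure tables supplied 3 of the 17 members. Of 14 genes of phenylpropanoid entry and lignin synthesis, 2 were higher, among them a 4-coumarate-CoA ligase gene (VIT_16s0050g00390), whose enzyme activates coumaric acid for both pathways, at 36, 38.4 and 37.2 FPKM in control and 76.2, 47.5 and 76.4 FPKM in exposed grapes (log2 fold change 0.81, SE 0.15, adjusted p = 0.00568). Exposed 2 was the lowest exposed sample for this gene, and its call held without any 1 EL33 sample. This gene was also among the ripening-rise genes defined below. Without exposed 2, 4 members were called, and 1 was called without control 1, control 2, exposed 1 or exposed 3.

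Small heat shock proteins, which bind unfolding proteins, had the largest median change of the 22 gene lists. Of 35 members tested, 32 were higher and 0 were lower, with a median log2 fold change of 2.71, and for 34 of the 35 every exposed sample lay above every control sample, against 3.02% called higher and 9.71% without overlap in this direction over all tested genes. The median log2 difference from the control mean was 2.56, 3.07 and 2.21 in exposed replicates 1 to 3, and exposed 2 was the highest of the 6 samples for 25 members. The cytosolic class II gene VIT_04s0008g01520 was at 52.1, 18.8 and 58.1 FPKM in control and 605, 641 and 359 FPKM in exposed grapes (log2 fold change 3.75, SE 0.36, adjusted p = 7.54e-05). HSP17 (VIT_19s0085g01050) was at 34.6, 17.1 and 60 FPKM in control and 444, 587 and 303 FPKM in exposed grapes (log2 fold change 3.70, SE 0.55, adjusted p = 0.00127). In both genes control 2 was the lowest control and exposed 3 the lowest exposed sample, still several times above the highest control. The largest fold change of the list was that of the class II gene VIT_04s0008g01500, at 3.85, 0.847 and 1.23 FPKM in control and 60.9, 80.7 and 32.8 FPKM in exposed grapes (log2 fold change 5.0, SE 0.90, adjusted p = 0.00397). The chloroplast member VIT_16s0098g01060 was at 1.003, 0.814 and 2.28 FPKM in control and 6.94, 50.9 and 6.21 FPKM in exposed grapes, so that exposed 2 alone was far above the rest (log2 fold change 3.30, SE 0.75, adjusted p = 0.0184). Its call was lost without control 1, control 2 or exposed 2, left out in turn (adjusted p between 0.055 and 0.0987). Without any 1 EL33 sample, 26 to 32 members were called. The median difference was 2.81 within the fifties and 2.26 within the sixties. Of the 37 members, 35 came from the study's tables of genes changed by exposure in these samples, and so did all 32 called members. The count, the median and the rank of the list are therefore not independent evidence of a change or its direction. Among the 2 tested members from other sources 0 were called, with a median log2 fold change of 0.10. The IDs of 13 members start with VIT_13s0019 and of 10 with VIT_04s0008, and how the reads of such similar neighbours were divided is uncertain.

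Larger chaperones moved less as a group, and a few members moved strongly. Of 41 members, 17 were higher and 0 were lower, with a median log2 fold change of 0.44, where 3.02% of all tested genes were called higher. An HSP70 gene (VIT_11s0037g00510), the ATP-driven chaperone that binds unfolded chains, was at 58.3, 49.7 and 98.1 FPKM in control and 444, 504 and 329 FPKM in exposed grapes (log2 fold change 2.67, SE 0.31, adjusted p = 0.000205). An HSP90-type gene annotated as heat shock protein 81-1 (VIT_02s0025g00280) was at 104, 108 and 187 FPKM in control and 622, 614 and 511 FPKM in exposed grapes (log2 fold change 2.18, SE 0.31, adjusted p = 0.000985). HSP101 (VIT_17s0000g07190), which pulls proteins out of aggregates, was at 142, 172 and 248 FPKM in control and 581, 516 and 478 FPKM in exposed grapes (log2 fold change 1.52, SE 0.27, adjusted p = 0.00379). None of these 3 genes overlapped between the groups, control 3 was their highest control, and the calls held without any 1 EL33 sample. Leaving out 1 sample gave 10 (without exposed 1) to 16 called members, with 11 without control 2. The study's exposure tables supplied 14 of the 41 members and 13 of the 17 calls. Among the 27 members from other sources 4 were called, with a median of 0.11.

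Of 5 regulators of the heat response, 2 were higher, where 3.02% of all tested genes were called higher. The co-activator MBF1C (VIT_11s0016g04080) was at 658, 589 and 841 FPKM in control and 1664, 1521 and 1171 FPKM in exposed grapes (log2 fold change 1.06, SE 0.20, adjusted p = 0.00483). A heat shock transcription factor gene annotated as A6B (VIT_00s0179g00150) was at 6.29, 8.49 and 8.62 FPKM in control and 30.3, 22.8 and 23.3 FPKM in exposed grapes (log2 fold change 1.70, SE 0.37, adjusted p = 0.014), a call lost without control 1 or exposed 1, left out in turn (adjusted p between 0.0656 and 0.0718). A second gene with this annotation, VIT_04s0008g01110, is named heat shock factor 2A in the study's text. It was at 166, 258 and 236 FPKM in control and 543, 531 and 371 FPKM in exposed grapes and did not pass the test (log2 fold change 1.13, adjusted p = 0.143), although the groups did not overlap. Galactinol synthase makes the donor for raffinose sugars, which protect cells under heat and drought. The galactinol synthase gene VIT_07s0005g01970 was at 29.5, 16.1 and 42.6 FPKM in control and 223, 254.2 and 161 FPKM in exposed grapes (log2 fold change 2.93, SE 0.42, adjusted p = 0.001), with exposed 2 highest. The galactinol synthase gene VIT_01s0127g00470 was at 22.9, 20.2 and 20.3 FPKM in control and 148, 32.4 and 77.6 FPKM in exposed grapes (log2 fold change 1.77, SE 0.35, adjusted p = 0.00811), with exposed 2 lowest of the exposed samples. The control level of the second gene changed by 5.36 on the log2 scale from EL31 to EL34 and that of the first by 1.69. In all, 3 of 9 galactinol and raffinose genes were higher and 0 lower. The study had drawn 3 of the 5 regulators and 4 of the 9 sugar genes from genes changed by exposure. All called members of both lists were among these, so the counts are not independent evidence. Of the other members 0 were called, with a median log2 fold change of -0.03 for the 2 regulators and 0.45 for the 5 sugar genes.

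The exposed replicates differed from each other in genes that change during ripening. To describe this, ripening-rise genes were taken from the EL31 and EL34 controls as the 745 tested genes (4.21%) whose control level was higher at EL34 than at EL31 by at least 2 on the log2 scale with an adjusted p of at most 0.05 (limma), and ripening-fall genes as the 1544 (8.72%) with the opposite change. Each sample was placed by its median over these genes, where 0 is the EL31 and 1 the EL34 control mean. Over the ripening-rise genes the control samples at EL33 stood at 0.267, 0.256 and 0.313, and the exposed samples at 0.571, 0.277 and 0.529 in replicates 1 to 3. Exposed 1 and 3 were thus well above all controls, and exposed 2 lay among them. Over the ripening-fall genes the controls stood at 0.347, 0.428 and 0.401 and the exposed samples at 0.479, 0.385 and 0.490. Again exposed 1 and 3 were ahead of all controls and exposed 2 was within their range. At EL31 all 6 samples lay between -0.02 and 0.03 for the ripening-rise genes, and at EL34 between 0.957 and 1.01, with exposed 2 lowest. For the ripening-fall genes they lay between -0.01 and 0.05 at EL31. At EL34 exposed 2 stood at 0.883 over these genes and the other samples between 0.976 and 1.05. The controls of these stages lie near 0 and 1 by definition. Since testing asked for 1 FPKM in either EL33 group, 65 ripening-rise genes entered through the exposed mean alone. Over the other 680, an alternative chosen after seeing the data, the controls stood at 0.278, 0.272 and 0.337 and the exposed samples at 0.572, 0.296 and 0.530. These positions are descriptions of single samples without a test.

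**Figure D2:**
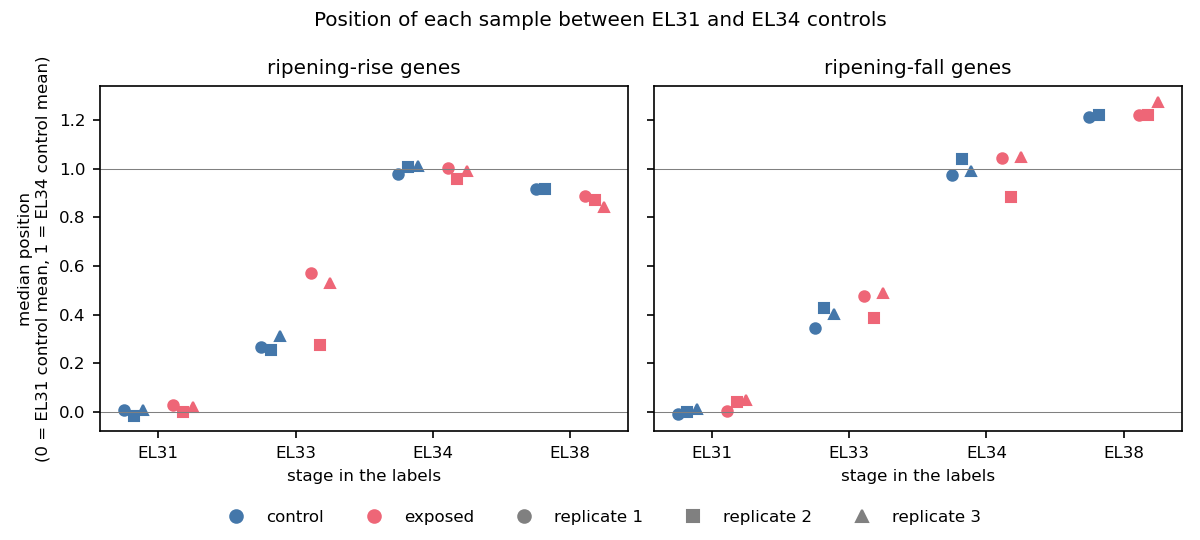
Median position of each of the 23 samples between the EL31 control mean (0) and the EL34 control mean (1), over 745 ripening-rise genes (left) and 1544 ripening-fall genes (right), by stage; colours give the treatment and shapes the replicate. At EL33 exposed 1 (0.571) and exposed 3 (0.529) stand apart from exposed 2 (0.277) and the controls (0.256 to 0.313) on the left.

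Of the 745 ripening-rise genes, 81.9% were above all 3 controls in exposed 1, 26.6% in exposed 2 and 75.7% in exposed 3, against 37.6%, 26.2% and 23.2% of all tested genes. Exposed 2 was thus near the share of all genes. Relative to the control mean their median log2 difference was 0.87, -0.05 and 0.72 in exposed replicates 1 to 3. Of the 535 genes called higher, 101 were ripening-rise genes (18.9% of the called genes and 13.6% of the ripening-rise genes), and 26 were ripening-fall genes. Exposed 2 was the lowest exposed sample in 79 of these 101 genes but the highest in 224 of the other 434. Of the 182 genes called lower, 49 were ripening-fall genes (26.9% of the called genes and 3.17% of the ripening-fall genes), and 1 was a ripening-rise gene. When exposed 2 was left out, limma called 322 of the ripening-rise genes instead of 101. Exposed 2 was the exposed sample without this shift. Calls of such genes made without it, here and below, are therefore no separate support for an effect of exposure.

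**Figure D3:**
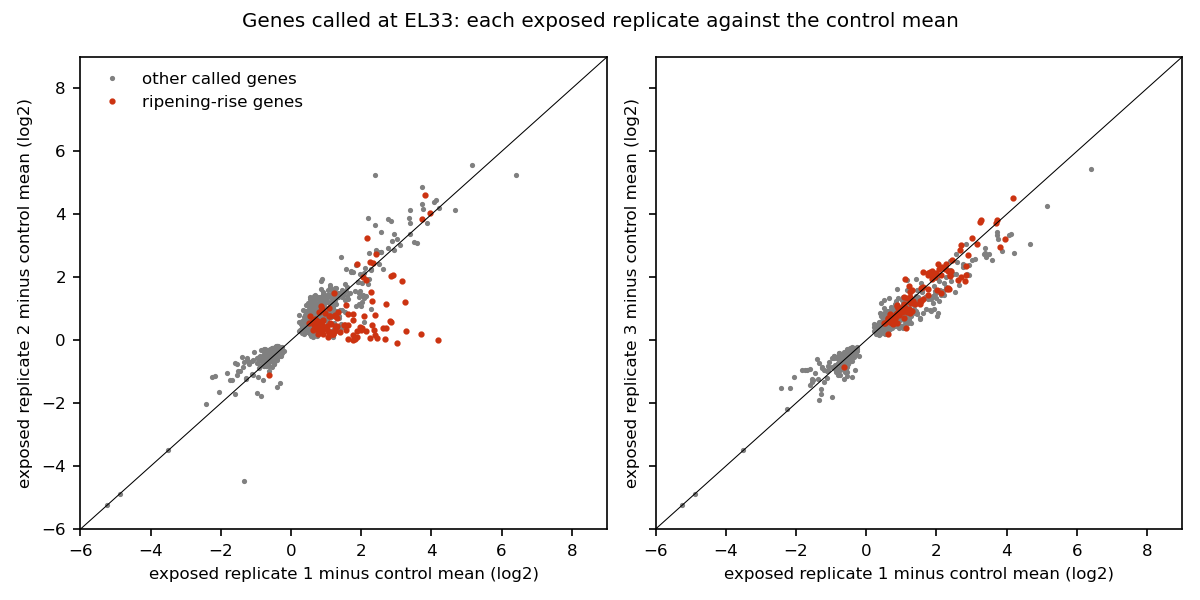
Log2 difference from the control mean at EL33 for the called genes, exposed 2 (left) or exposed 3 (right) against exposed 1. Red points are ripening-rise genes, grey points all others, and the line marks equal values. A few of the 717 called genes, among them VIT_05s0029g00740 and VIT_11s0016g02000, lie beyond the axes and are not drawn. Many red points fall below the line on the left (median 0.50 in exposed 2 against 1.52 in exposed 1 for the 101 called higher), while they lie near it on the right (1.43 in exposed 3).

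Genes of berry proteins that accumulate from véraison showed this split between replicates. Of 20 tested genes for thaumatin, osmotin, chitinase and grip22, 14 were ripening-rise genes, so they are not separate evidence of the split. By the test 1 of the 20 was called, where 3.02% of all tested genes were called higher. The list stood 1.97, -0.19 and 1.11 above the control mean on the log2 scale in exposed replicates 1 to 3. The thaumatin gene VVTL1 (VIT_02s0025g04330), a pathogenesis-related protein of ripe grapes, was at 133, 148 and 146 FPKM in control and 3096, 80.7 and 2301 FPKM in exposed grapes (log2 fold change 2.55, SE 0.93, adjusted p = 0.144 by limma). The ripening marker grip22 (VIT_06s0004g02560), a kiwellin, was at 231, 489 and 291 FPKM in control and 3789.5, 281 and 2730.2 FPKM in exposed grapes (log2 fold change 2.15, SE 0.62, adjusted p = 0.0637). In both genes exposed 1 and 3 were far above every control and exposed 2 was within or below the control range. The thaumatin gene SCUTL2 (VIT_18s0001g11930), the called member, was at 12.4, 16.1 and 17.9 FPKM in control and 84.2, 16 and 89.4 FPKM in exposed grapes (log2 fold change 1.69, SE 0.44, adjusted p = 0.0404), and its call was lost without control 1, control 2, control 3, exposed 1 or exposed 3, left out in turn (adjusted p between 0.0644 and 0.185). Without exposed 2, 9 members were called by limma, VVTL1 with a log2 fold change of 4.23 (adjusted p = 0.000104) and grip22 with 3.33 (adjusted p = 5.12e-06). These p values come from leaving out the exposed sample that lacked the increase. The study had listed 18 of the 26 members as changed by exposure.

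Of 31 tested genes for cell wall loosening and pectin breakdown, 0 passed limma's test at EL33 and 12 had an unadjusted p of at most 0.05, 10 higher, against 9.67% of all tested genes, and 2 lower. The beta-expansin EXPB4 (VIT_15s0021g02700), which loosens the wall of softening berries, was at 10.1, 12.6 and 17.8 FPKM in control and 261.97, 7.65 and 260.1 FPKM in exposed grapes (log2 fold change 2.61, SE 0.87, adjusted p = 0.112). A pectate lyase gene (VIT_17s0000g09810) was at 6.79, 31.2 and 15.3 FPKM in control and 333, 13 and 344 FPKM in exposed grapes (log2 fold change 2.94, SE 0.85, adjusted p = 0.0637). Polygalacturonase PG1 (VIT_08s0007g08330), which cuts pectin chains, was at 6.51, 23.1 and 23.1 FPKM in control and 126, 12.2 and 173 FPKM in exposed grapes (log2 fold change 2.08, adjusted p = 0.103). As with the thaumatins, exposed 1 and 3 were above all controls for each of these genes and exposed 2 was not. Without exposed 2, 13 members were called, and without control 3, 2. The adjusted p by limma without exposed 2, the exposed sample that lacked the increase, was 2.17e-06 for EXPB4, 1.29e-05 for the pectate lyase and 0.000148 for PG1. PG1, grip22, MybA2 and the ACC oxidase gene below were named after their values were seen. The study had listed 19 of the 41 members as changed by exposure. Of the 31 tested, 16 were ripening-rise genes and so not separate evidence of the split.

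MybA genes regulate anthocyanin synthesis at véraison in red grapes. VvMybA1 (VIT_02s0033g00380) was listed at 0 in all 3 controls and in exposed 2 and was at 41.5 and 22.8 FPKM in exposed 1 and 3, so no fold change is given. MybA2 (VIT_02s0033g00390) was at 1.40, 2.57 and 2.47 FPKM in control and 26.8, 0.202 and 34.4 FPKM in exposed grapes (log2 fold change 1.59, adjusted p = 0.631). MybA3 (VIT_02s0033g00450) was at 1.81, 3.93 and 3.18 FPKM in control and 54.9, 1.15 and 57.7 FPKM in exposed grapes (log2 fold change 2.43, adjusted p = 0.249). Of the 4 members, 0 passed limma's test and 2 had an unadjusted p of at most 0.05, both higher, against 9.67% of all tested genes. Exposed 2 was the lowest of the exposed samples for each of the 4. Without exposed 2, 2 were called. These genes are close paralogs whose reads may have been divided between them, and the study chose all 4 as changed by exposure. All 4 were also ripening-rise genes.

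**Figure D4:**
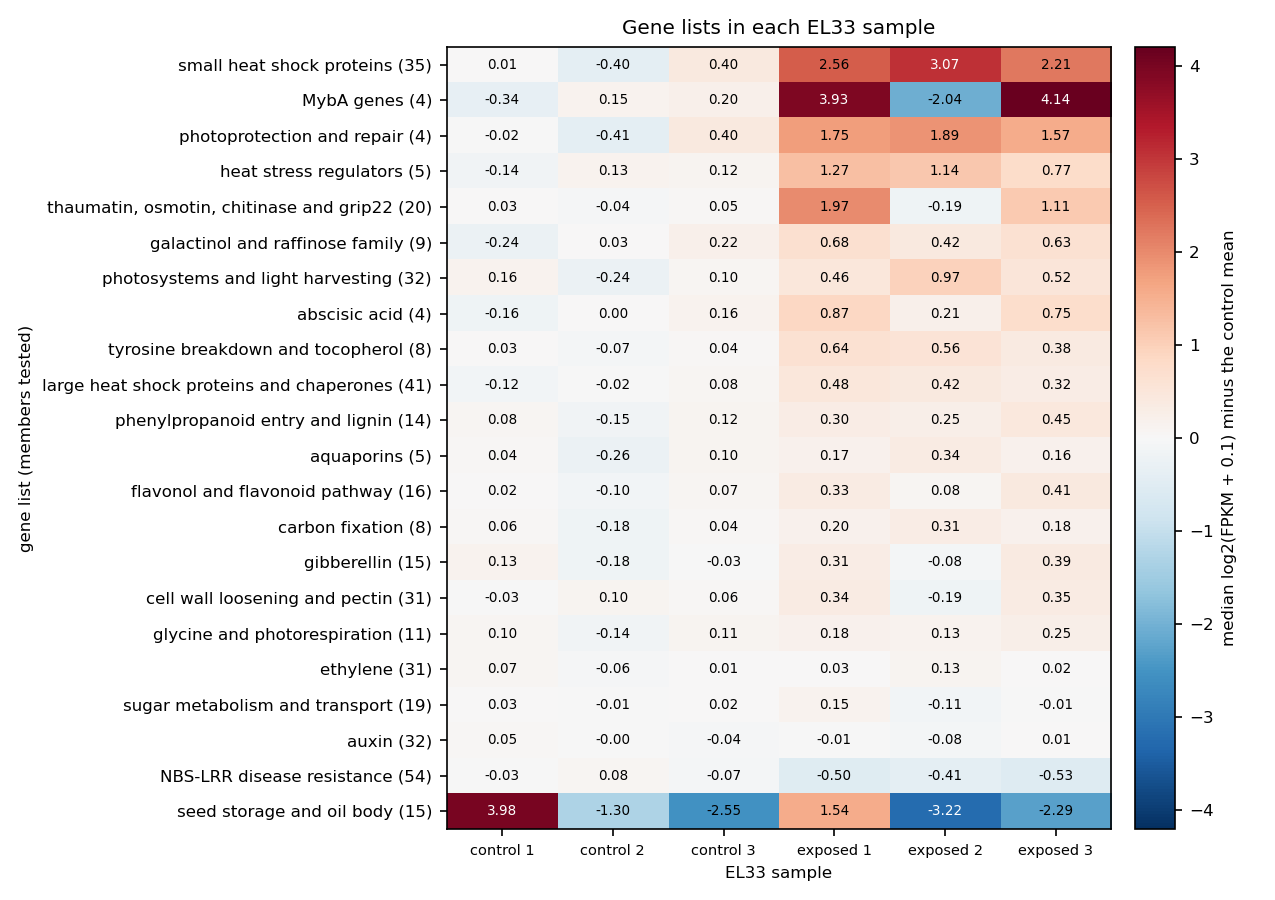
Median over the tested members of 22 gene lists (rows, number tested in brackets) of log2(FPKM + 0.1) minus the control mean, for each EL33 sample (columns); red is above and blue below the control mean. Small heat shock proteins are high in all 3 exposed samples (2.56, 3.07 and 2.21), the thaumatin list only in exposed 1 (1.97) and 3 (1.11), and seed storage genes in control 1 (3.98) and exposed 1 (1.54).

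Single hormone genes passed the test. All called genes of abscisic acid and gibberellin were also ripening-rise genes, so their calls are not separate from the calls of those genes above. A change of these genes apart from ripening was not tested. Of 4 genes of abscisic acid, 2 were higher, where 3.02% of all tested genes were called higher and 1.03% lower. A 9-cis-epoxycarotenoid dioxygenase gene (VIT_02s0087g00930), whose enzyme is the limiting step of abscisic acid synthesis, was at 1.98, 2.48 and 3.13 FPKM in control and 18.7, 3.81 and 13.1 FPKM in exposed grapes (log2 fold change 1.93, SE 0.39, adjusted p = 0.00876). Its groups did not overlap, exposed 2 lay just above the highest control, and the call was lost without exposed 1 (adjusted p = 0.0513). The phosphatase gene PP2CA (VIT_13s0019g02200), a negative regulator in abscisic acid signalling, was at 37.1, 48.4 and 55.4 FPKM in control and 104, 53.6 and 117 FPKM in exposed grapes (log2 fold change 0.90, SE 0.21, adjusted p = 0.0199). Here exposed 2 was within the control range and the call was lost without control 1, control 2, exposed 1 or exposed 3, left out in turn (adjusted p between 0.0683 and 0.106). Of 15 gibberellin genes, 2 were higher and 0 lower, and 5 passed without exposed 2. Gibberellin 2-beta-dioxygenase (VIT_10s0116g00410), which inactivates gibberellin, was at 3.25, 1.54 and 4.52 FPKM in control and 12.1, 11.7 and 15.7 FPKM in exposed grapes (log2 fold change 2.16, SE 0.44, adjusted p = 0.00925). All exposed samples were above all controls, and the call was lost without control 2 (adjusted p = 0.0695). The other called member, annotated as a gibberellin receptor of the GID1L2 type (VIT_07s0104g00930), was higher by 0.76 on the log2 scale (adjusted p = 0.0184), a call lost without control 1, control 2, exposed 1 or exposed 3, left out in turn (adjusted p between 0.0832 and 0.108).

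Of 31 ethylene genes, 2 were higher and 1 was lower, and 6 were called without exposed 2 and 1 without control 1, control 2 or exposed 3. The receptor gene ETR2 (VIT_05s0049g00090) was at 24.5, 24 and 25.4 FPKM in control and 56.6, 47.5 and 39.9 FPKM in exposed grapes (log2 fold change 0.94, SE 0.10, adjusted p = 0.000111), with nearly equal controls and no overlap. The gene annotated as ethylene overproducer ETO1 (VIT_00s0179g00100), which in Arabidopsis restrains ethylene synthesis, was at 87.4, 84.2 and 77.1 FPKM in control and 60.6, 59.8 and 56.7 FPKM in exposed grapes (log2 fold change -0.49, SE 0.11, adjusted p = 0.0156), a call lost without control 1, control 2 or exposed 3, left out in turn (adjusted p between 0.0642 and 0.0687). An ethylene-responsive transcription factor gene (VIT_04s0008g06000) was higher by 1.34 on the log2 scale (adjusted p = 0.0206), and this call was lost without control 1, control 2, exposed 1 or exposed 3, left out in turn (adjusted p between 0.0611 and 0.116). ACC oxidase 2 (VIT_11s0016g02380), the last enzyme of ethylene synthesis, did not pass the test and was at 0.551, 0.789 and 0.622 FPKM in control and 15.1, 0.083 and 8.77 FPKM in exposed grapes (log2 fold change 1.96, adjusted p = 0.332). It was high in exposed 1 and 3 and lowest of all 6 samples in exposed 2. Without exposed 2, the exposed sample that lacked the increase, its adjusted p by limma was 6.01e-06. Of 32 auxin genes, 1 was higher, near the 3.02% over all tested genes, and 1 was lower, where 1.03% of all tested genes were lower. Without exposed 2, 4 auxin genes were called, and 1 was called without any other EL33 sample. SAUR29 (VIT_16s0098g01150), an auxin-responsive gene, was at 2.77, 3.92 and 5.68 FPKM in control and 38.5, 9.36 and 54.2 FPKM in exposed grapes (log2 fold change 2.74, SE 0.49, adjusted p = 0.00399). SAUR29 and the ethylene-responsive transcription factor gene VIT_04s0008g06000 were also ripening-rise genes, so their calls are not separate from the calls of those genes above. Auxin response factor 3 (VIT_10s0003g00420) was lower by a log2 fold change of -0.54 (adjusted p = 0.0449), a call lost without control 1, control 2, control 3, exposed 1 or exposed 3, left out in turn (adjusted p between 0.0691 and 0.181). The study had drawn 8 of 35 ethylene, 9 of 35 auxin, 8 of 15 gibberellin and 1 of 4 abscisic acid genes from its tables of exposure changes.

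Among transport genes, the aquaporin TIP1;3 (VIT_13s0019g00330), a water channel of the vacuole, was at 76.8, 74 and 122 FPKM in control and 580.0, 196 and 717 FPKM in exposed grapes (log2 fold change 2.29, SE 0.32, adjusted p = 0.000985). All exposed samples were above all controls and exposed 2 stood between the controls and the other exposed samples. It was the called member among 5 tested aquaporins, of which 2 came from the study's exposure tables. Of 19 genes of sugar metabolism and transport, 1 was higher, near the 3.02% over all tested genes, the hexose transporter HT2 (VIT_18s0001g05570) at 13.5, 15.7 and 17.2 FPKM in control and 24.9, 22.4 and 27.7 FPKM in exposed grapes (log2 fold change 0.69, SE 0.13, adjusted p = 0.00623), with no overlap between the groups. The median of the sugar list was 0.01, 4 members were called without exposed 2, and 1 of 21 members came from the exposure tables. A mitochondrial 2-oxoglutarate/malate carrier gene (VIT_18s0001g07320), which exchanges organic acids across the mitochondrial membrane, was at 2.42, 3.32 and 4.77 FPKM in control and 16.7, 16.3 and 10.6 FPKM in exposed grapes (log2 fold change 2.04, SE 0.31, adjusted p = 0.00144). The homeobox gene WUSCHEL homeobox 4 (VIT_18s0001g10160) was at 1.39, 0.803 and 1.21 FPKM in control and 5.74, 3.38 and 6.37 FPKM in exposed grapes (log2 fold change 2.07, SE 0.31, adjusted p = 0.00135). Both calls held without any 1 EL33 sample. TIP1;3, HT2 and WUSCHEL homeobox 4 were also called ripening-rise genes.

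Genes lower in exposed grapes changed less. Of the 182 genes called lower, 29 fell by at least 1 on the log2 scale, 22 of them without a 0 in any EL33 sample. A GDSL lipase gene (VIT_09s0002g03140) was at 25, 7.86 and 15.6 FPKM in control and 2.64, 3.48 and 5.02 FPKM in exposed grapes (log2 fold change -1.99, SE 0.31, adjusted p = 0.00146), with no overlap and a call that held without any 1 EL33 sample. VIT_16s0050g02100, annotated as a disease resistance gene, was at 9.77, 7.58 and 7.42 FPKM in control and 1.62, 3.57 and 1.73 FPKM in exposed grapes (log2 fold change -1.87, SE 0.34, adjusted p = 0.00399). From EL31 to EL34 the control levels of both changed by -4.87 and -3.66 on the log2 scale. Among the 10 largest decreases by the fit, VIT_05s0029g00740 was at 121, 61.7 and 258 FPKM in control grapes and listed at 0 in all exposed samples. VIT_14s0006g03220, VIT_19s0014g03810 and VIT_17s0000g02610 were also listed at 0 in all exposed samples and in 1 control each. Among the 10 largest increases, VIT_11s0016g02000 was listed at 0 in all controls and exposed 2, VIT_00s0480g00070 in controls 1 and 3, and VIT_07s0031g01890 in control 1. No fold change is given for these genes. Another of these increases, VIT_07s0005g01080, annotated as an unknown protein, was at 0.57, 0.325 and 1.16 FPKM in control and 9.93, 17.3 and 5.40 FPKM in exposed grapes (log2 fold change 3.80, SE 0.62, adjusted p = 0.00216), highest in exposed 2, and its call held without any 1 EL33 sample.

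NBS-LRR genes encode receptors that detect pathogens inside the cell. Of 54 tested members, 2 were lower and 1 was higher by the test, against 1.03% and 3.02% of all tested genes. A negative log2 fold change was seen in 48 members, and the list median was -0.45 against -0.02 over all genes. In 31 members every exposed sample lay below every control sample, a pattern shown by 12.8% of all tested genes, and 21 were lower at an unadjusted p of at most 0.05, against 7.92% of all tested genes. The list stood -0.50, -0.41 and -0.53 from the control mean in exposed replicates 1 to 3, so exposed 2 did not stand apart here. A TIR-NBS-LRR gene (VIT_18s0117g00050) was at 61.2, 65.2 and 48.8 FPKM in control and 37.8, 36.2 and 29.9 FPKM in exposed grapes (log2 fold change -0.75, SE 0.20, adjusted p = 0.0452). VIT_12s0035g01260, an NBS-LRR gene, was at 6.23, 6.94 and 7.16 FPKM in control and 4.31, 4.58 and 4.61 FPKM in exposed grapes (log2 fold change -0.58, SE 0.13, adjusted p = 0.0177). The higher member, ADR1 (VIT_18s0001g11250), a helper of other such receptors in Arabidopsis, was at 15.5, 16.1 and 18.2 FPKM in control and 25.8, 17.9 and 23 FPKM in exposed grapes (log2 fold change 0.41, SE 0.10, adjusted p = 0.0315). Each of these 3 calls was lost in several fits. VIT_18s0117g00050 was lost without control 1, control 2, exposed 1, exposed 2 or exposed 3, left out in turn (adjusted p between 0.06 and 0.182), VIT_12s0035g01260 without control 2, control 3 or exposed 1, left out in turn (adjusted p between 0.0581 and 0.0782), and ADR1 without control 1, control 2, exposed 1 or exposed 3, left out in turn (adjusted p between 0.112 and 0.148). Of the 64 members, 61 came from the study's developmental markers alone, and the control level of the list changed by a median of -1.24 on the log2 scale from EL31 to EL34.

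Seed storage and oil body genes were high in 1 sample of each group. Of 15 tested members, 0 passed limma's test and 2 had an unadjusted p of at most 0.05, both higher, against 9.67% of all tested genes. The median log2 fold change over the list was -1.70. The study had listed 12 of the 16 members as changed by exposure. The 2S albumin gene VIT_19s0177g00090 was at 840.3, 8.14 and 1.12 FPKM in control grapes and at 63.4 and 0.764 FPKM in exposed 1 and 2, and was listed at 0 in exposed 3. The 11S globulin gene VIT_07s0005g03420 was at 275, 3.79 and 0.287 FPKM in control grapes and at 20.6 and 0.133 FPKM in exposed 1 and 2, and was also listed at 0 in exposed 3. Both were highest in control 1, then in exposed 1. What part this RNA has in other differences at EL33 was not tested beyond leaving those samples out.

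The response at EL33 was set against that at EL31 and EL34, which used other samples. Of the 535 genes called higher at EL33, 345 (64.5%) were also called higher at EL31 and 210 at EL34, and 191 at all 3 stages. In the same fit, 768 genes (4.34%) were higher and 158 (0.893%) lower in exposed grapes at EL31, and 418 (2.36%) were higher and 227 (1.28%) lower at EL34. The 171 genes called higher at EL33 alone are not thereby shown to differ from the other stages. Tested directly with limma, the exposure effect differed between EL33 and EL31 in 0 genes (904 at an unadjusted p of at most 0.05) and between EL33 and EL34 in 22 genes (0.124%), 14 (0.0791%) with a larger and 8 (0.0452%) with a smaller effect at EL33. Without exposed 2 these counts were 222 and 318. For the difference from EL34 the count was 9 without control 1, 36 without control 3, 8 without exposed 1 and 8 without exposed 3. For the difference from EL31 it was 3 without control 2, and 1 without control 3 or exposed 1.

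Heat shock, photosystem and photoprotection lists had positive medians at all 3 stages. The cell wall, aquaporin and sugar lists had one at EL33 alone. At EL33 the cell wall list stood 0.34, -0.19 and 0.35 from the control mean in exposed replicates 1 to 3. These medians were not tested. The median log2 fold change of the small heat shock proteins was 4.01 at EL31, 2.71 at EL33 and 4.16 at EL34, though 0 of the 35 members differed between EL33 and either stage by limma. The photosystem list had medians of 0.80, 0.60 and 0.52, and the photoprotection genes 1.82, 1.74 and 0.97. ELIP1 (VIT_05s0020g04110) had log2 fold changes of 2.39 at EL31 and 0.92 at EL34, and flavonol synthase (VIT_18s0001g03470) of 4.64 and 4.04. The thaumatin list had medians of 0.36, 0.80 and 0.05, and the cell wall list of -0.13, 0.17 and -0.13. At EL31 and EL34, grip22 (VIT_06s0004g02560) had log2 fold changes of 0.35 and -0.19 and the aquaporin TIP1;3 (VIT_13s0019g00330) of 0.28 and 0.02. For NBS-LRR genes the medians were -0.24, -0.45 and -0.05.

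**Figure D5:**
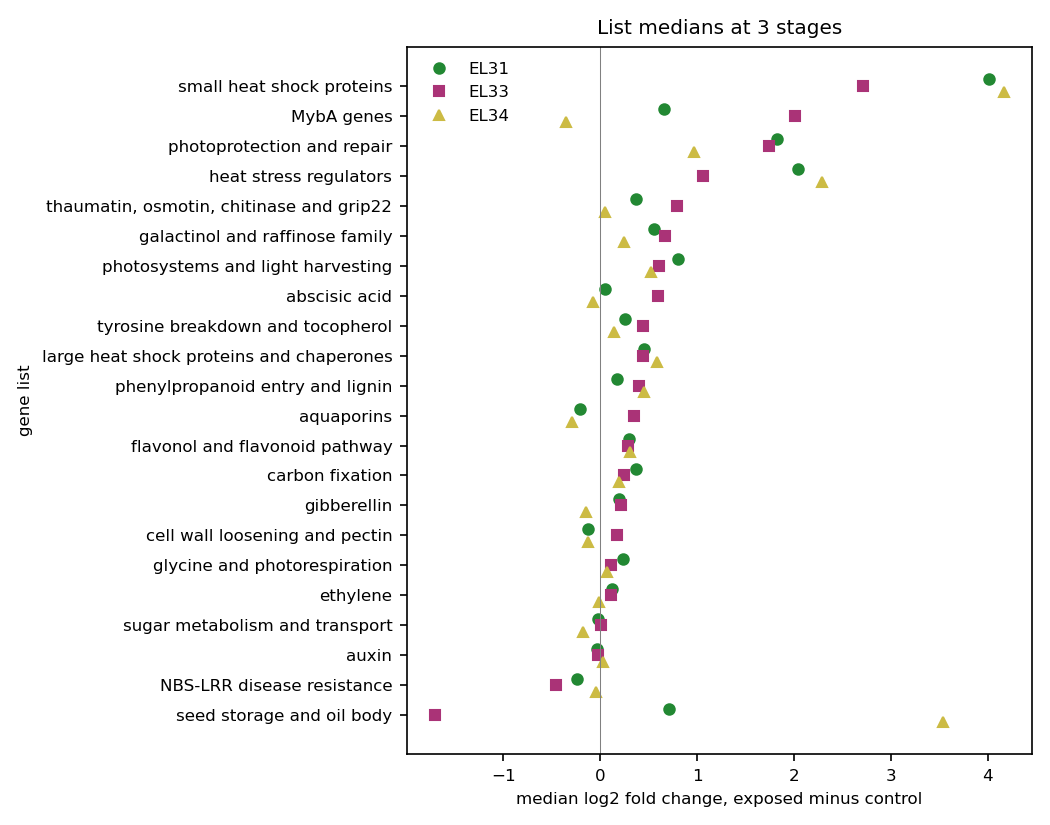
Median log2 fold change, exposed minus control, over the tested members of 22 gene lists at EL31 (circles), EL33 (squares) and EL34 (triangles). Small heat shock proteins lie far above 0 at each stage (4.01, 2.71 and 4.16), and the thaumatin list is highest at EL33 (0.80 against 0.36 and 0.05).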

How the data were processed

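Poly(A) mRNA of 23 berry samples was sequenced on an Illumina HiSeq. The authors parsed reads with CASAVA 1.8.2, aligned them with TopHat (at most 2 mismatches) to the V1 build of the PN40024 genome and computed the deposited FPKM per gene with Cufflinks. They left out 1 EL38 control sample as an outlier. Their CuffDiff test needs aligned reads and was not repeated. Groups and replicate numbers came from the labels, which name the stage EL34 that the paper calls EL35. Which vine panel gave each sample was not stated in the sources used here.

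All genes averaging 1 FPKM or more in either EL33 group entered the test. The model, fitted in R 4.3.3 with limma 3.58.1, held 8 group means over 23 samples of log2(FPKM + 0.1) and an eBayes trend. Adding 0.1 understates the fold change of low genes. Benjamini-Hochberg adjustment ran over 17700 genes with a threshold of 0.05. In simulated data of this size, 68 of 100 genes with a log2 change of 1 and 89 of 100 with a change of 2 were called, and 4 of 17500 unchanged genes. The simulation gave each gene the same spread in every group and no shift of a whole sample such as exposed 2. These rates therefore need not hold for the real samples. Relative depth was fitted to the most frequent ratios of FPKM values under 0.06 between pairs of samples. Without counts, no counting interval was computed.

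The samples and 22 gene lists were chosen with earlier results of these data known. The lists hold 457 genes by functional annotation in the study's supplementary tables, and genes are named with the VIT_ IDs and these annotations. Coordinates and sequences were not used here. Named genes were the 10 largest increases and decreases among called genes averaging at least 5 FPKM in the higher group, up to 6 called members per list (and 2 others where fewer than 2 were called), genes named by the study, and genes that differed most between stages, 119 in all, of which the text gives a part. VIT_16s0098g01060, VIT_17s0000g07190, grip22, PG1, MybA2, ACC oxidase 2 and, in the closing section, APRR5, the CIPK genes, NAC19, JAZ1 and DDTFR8 were named after their values were seen. The alternatives were other pseudocounts, filters, scalings, eBayes settings, a block for replicate number or number range, sample weights, a threshold of 0.01, EL33 fitted alone and each EL33 sample left out in turn. Figures were drawn with matplotlib 3.10.9.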

Additional observations from a re-analysis of the deposited data

Results flagged for a closer look

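The effect of exposure differed between EL33 and EL34 in 22 genes by limma's contrast of both effects, and those with the largest differences among genes averaging 5 FPKM or more in an EL33 group are given here with their values. The circadian regulator gene CIR1/RVE2 (VIT_04s0079g00410) was at 18.9, 16.9 and 18.4 FPKM in control and 25.6, 24.2 and 23 FPKM in exposed grapes at EL33, and at 113, 89.5 and 98 FPKM in control and 66.6, 62.9 and 52.4 FPKM in exposed grapes at EL34. It was higher in exposed grapes at the first stage and lower at the second, with a difference of 1.15 on the log2 scale (adjusted p = 0.00444). The effect on 4-hydroxyphenylpyruvate dioxygenase (VIT_12s0028g00710) was 0.64 at EL33 and -0.54 at EL34, a difference of 1.18 (adjusted p = 0.0264), and 3 of 3 exposed samples lay above the controls at EL33 and below them at EL34. VIT_18s0001g00720, which has no annotation in the sources used here, was at 16.3, 14.9 and 9.92 FPKM in control and 4.57, 6.23 and 5.69 FPKM in exposed grapes at EL33, with an effect of -1.28 there and 0.60 at EL34, and the difference was -1.88 (adjusted p = 0.0264).

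For 3 more of the 22 genes, the gene was listed at 0 in an EL34 group, so the size of the difference depends on the added 0.1 and is no fold. CYP71A26 (VIT_17s0000g09540) had a difference of 7.15 and was listed at 0 in all 3 exposed samples at EL34. VIT_05s0049g00520 had a difference of -17.01 and was listed at 0 in all EL34 controls, whereas at EL33 it was at 717, 1202 and 1005 FPKM in control and 7023, 787 and 5968 FPKM in exposed grapes, high in exposed 1 and 3. VIT_01s0127g00340 had a difference of -4.08 and was also listed at 0 in all EL34 controls.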

How the results depend on the processing

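The 717 calls at EL33 were 4.05% of the tested genes. This share was 6.11% with quantile normalization, 2.28% with a block for the number range, 14.6% with sample weights, 1.40% at a threshold of 0.01, 0.0226% with EL33 fitted alone (4 genes) and 1.48% to 5.66% with 1 sample left out. The share of higher calls was 65.5% with quantile normalization, 52.0% with sample weights, 86.6% at a threshold of 0.01 and 90.0% without control 1 and exposed 1, against 74.6%. Those weights were 0.398 for exposed 2 and 3.76 for exposed 3. Called list members numbered 95, against 189 with sample weights, 59 at 0.01, 0 with EL33 alone and 58 to 121 with 1 sample left out. The effect at EL33 minus that at EL31 gave 0 calls, against 3 without a filter, 2 with a filter on any of the 8 groups, 2 with median-of-ratios scaling, 6 with quantile normalization, 1 without a trend, 768 with sample weights and 0 to 222 with 1 sample left out. The effect at EL33 minus that at EL34 gave 22, against 8 with the number range block, 404 with sample weights, 6 at 0.01 and 8 to 318 with 1 sample left out. Among the alternatives chosen after seeing the data, leaving out control 1 and exposed 1 gave 140 calls (0.791%), 37 list members and 5 differences from EL34, and leaving out genes listed at 0 gave 736 calls and 1 difference from EL31. Ripening positions over genes whose control mean alone passed the filter moved by less than the spread between replicates. The cause of these changes was not tested.

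Replicate numbers were shared between the groups, but the deviations of same-numbered samples from their group means correlated by only 0.087, 0.028 and -0.02, and control 2 correlated best with exposed 3, so the numbers were not taken to pair the samples. With the replicate block 1001 genes (5.66%) were called, 62.6% of them higher, with 97 list members, 2 differences from EL31 and 16 from EL34. No gene whose fold change at EL33 the text gives reversed its direction under any alternative. Relative depth between 0.713 and 1.79 limits precision for low genes in exposed 2 and control 3.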

Other observations

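Several signalling genes outside the lists followed the split between the exposed replicates, and all were picked after their values were seen. The kinase gene CIPK20 (VIT_10s0003g01410), of a family that acts with calcium sensors, was at 0.361, 1.47 and 0.816 FPKM in control and 15.7, 0.784 and 20 FPKM in exposed grapes (log2 fold change 2.91, adjusted p = 0.0459 by limma). CIPK7 (VIT_05s0020g04570) was at 22.8, 23.7 and 24.3 FPKM in control and 123, 29.3 and 72.6 FPKM in exposed grapes, and CIPK6 (VIT_09s0070g00160) at 9.81, 11.4 and 12.5 and 30.1, 14.6 and 43.4 FPKM. The transcription factor gene NAC19 (VIT_19s0014g03290) was at 16.2, 20.5 and 26.9 FPKM in control and 76.9, 22.5 and 79.7 FPKM in exposed grapes, and the jasmonate repressor JAZ1 (VIT_11s0016g00710) at 4.75, 4.72 and 5.80 and 18.1, 5.26 and 22.9 FPKM. In each of these genes exposed 1 and 3 lay well above the controls and exposed 2 near or within their range. CIPK20, CIPK7, NAC19 and JAZ1 were ripening-rise genes and so not separate evidence of the split, whereas CIPK6 was not one of them. CIPK20 lost its call without control 1, control 2, control 3, exposed 1 or exposed 3, left out in turn (adjusted p between 0.0743 and 0.207), CIPK7 without control 1, control 2, exposed 1 or exposed 3, left out in turn (adjusted p between 0.0603 and 0.0745), CIPK6 without control 1, control 2, exposed 1 or exposed 3, left out in turn (adjusted p between 0.0715 and 0.0949), NAC19 without control 1, control 2, exposed 1 or exposed 3, left out in turn (adjusted p between 0.143 and 0.202) and JAZ1 without control 1, control 2, control 3, exposed 1 or exposed 3, left out in turn (adjusted p between 0.0661 and 0.199).

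Other genes did not follow that split. The clock gene APRR5 (VIT_16s0098g00900), which peaks at a set time of day in Arabidopsis, was at 25.7, 22.4 and 21 FPKM in control and 11.7, 13.8 and 12.7 FPKM in exposed grapes (log2 fold change -0.85, SE 0.13, adjusted p = 0.00144 by limma), without overlap between groups and with a call that held without any 1 EL33 sample. CIR1/RVE2 (VIT_04s0079g00410), another clock-related gene, was higher by 0.43 (adjusted p = 0.0404), a call lost without each EL33 sample in turn, with adjusted p up to 0.166. DDTFR8 (VIT_13s0047g00110), annotated as a ripening-regulated protein, was at 166, 124 and 231 FPKM in control and 779, 646 and 456 FPKM in exposed grapes (log2 fold change 1.87, SE 0.24, adjusted p = 0.000417), lowest of the exposed samples in exposed 3. The highest value in the 6 samples was 22800000 FPKM for VIT_14s0060g01730 in control 1, listed at 0 in the other 5.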
